A study of Mus musculus with 4 samples.

Results

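Matrix proteins, galectins, ADAM proteases and TIMP inhibitors of mouse T helper 2 (Th2) cells are 9 genes of the 54532 in the deposited count table, chosen by gene name: Emilin1, Emilin2, Ecm1, Lgals1, Lgals3, Adam8, Adam19, Timp1 and Timp2. They were put together with results of the HU-308 against DMSO comparison known, among them that of Emilin2. Their differences between the groups are therefore given as a description, with no p-value. All 4 libraries came from wild-type CD4+ T cells of the bleomycin-induced model of systemic sclerosis, driven towards the Th2 state in culture. The 2 HU-308 libraries were from cultures with HU-308, a synthetic agonist selective for cannabinoid receptor 2, and the 2 DMSO libraries from cultures with DMSO, its solvent. On day 4 every culture was stimulated again with beads against CD3 and CD28, and RNA was taken 12 h later. Neither the dose of HU-308 nor the number, age or sex of the animals is given in the sources used here. Replicates are not tied to separate animals or cultures, so the spread between them may be technical.

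T cells meet the matrix as users and as makers of it. EMILIN1 and EMILIN2 are glycoproteins found where elastic fibres meet microfibrils, and ECM1 is a secreted glycoprotein that in mice marks Th2 cells and is needed for their exit from lymph nodes. Galectin-1 and galectin-3 bind galactose-containing sugars on surface glycoproteins and dampen T cell responses. ADAM8 and ADAM19 are membrane-bound metalloproteases that cut the outer parts of surface proteins, and TIMP1 and TIMP2 are secreted inhibitors of metalloproteinases.

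The HU-308 libraries held 16145298 and 16263077 counts and the DMSO libraries 18041457 and 20479254, with 20525 to 21319 genes detected in each. T cell markers were all read in every library (6 of 6), with sums of 1668 and 1904 CPM (reads relative to library size, scaled between libraries) with HU-308 and 1396 and 1665 CPM with DMSO. Of the 8 Th2 markers 7 were read in every library, at sums of 1040 and 1157 CPM with HU-308 and 1450 and 1696 CPM with DMSO. The other, Ptgdr2, had no read. Markers of other cells were read too, led by B cell markers (all 6 in every library, sums of 35.8 to 84.0 CPM) and macrophage markers (3 of 8 in every library, sums of 30.5 to 77.8 CPM, mostly Adgre1). Defining markers of other cells without a read were Col3a1, Pdgfra and Dcn for fibroblasts, Lyz2, C1qa and C1qb for macrophages, and S100a8 and S100a9 for neutrophils. Mitochondrial transcripts took 1.70% and 1.37% of counts with HU-308 and 2.26% and 1.75% with DMSO.

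The members differed widely in level. Per kilobase, Ecm1 and Lgals1 together made up between 91.7% and 95.0% of the members' summed FPKM (fragments per kilobase, scaled for depth) in each library. Ecm1 alone took 57.3% and 56.2% of that sum with HU-308 and 57.5% and 56.3% with DMSO. Over the 4 libraries, Ecm1 had the 8th highest mean FPKM of all genes and Lgals1 the 17th. Adam8 and Adam19 came next at ranks 685 and 692, followed by Lgals3 (1899), Emilin2 (3075), Timp2 (8753), Emilin1 (10017) and Timp1 (12206). Ecm1 stood above Lgals1, and Lgals1 above every other member, in all 4 libraries. Timp1 was last in all 4. Adam8 and Adam19 changed places within both groups, and so did not differ beyond their spread in either. Lgals3 lay well above Emilin2 in both HU-308 libraries, while with DMSO they changed places. Timp2 and Emilin1 likewise changed places with DMSO, and Timp2 was the higher in both HU-308 libraries.

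**Figure D1:**
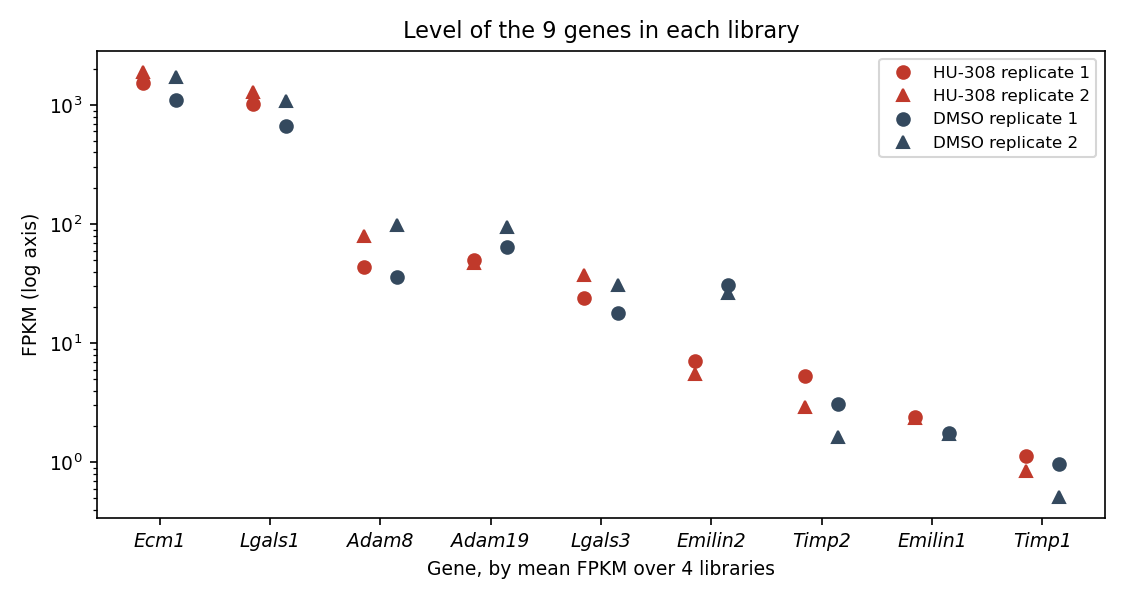
FPKM of each gene (log axis) in the 2 HU-308 libraries (left of each pair) and the 2 DMSO libraries (right), 1 point a library. Ecm1 lies between 1109 and 1896 FPKM and Timp1 between 0.515 and 1.13 FPKM, and Emilin2 and Adam19 have both HU-308 points below both DMSO points.

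Promoter windows of 250 bases before to 50 bases after a start were available from RefSeq (GRCm38.p6) for 8 of the 9 genes, as 11 windows. Those below belong to the member with the highest level and to both members whose HU-308 libraries lay below the DMSO libraries; of the Adam19 windows, the one with an AP-1 match is shown. Capitals mark the letters of motifs searched on both strands: the AP-1 motif TGANTCA, the STAT motifs TTCNNNGAA and TTCNNNNGAA, and the cAMP response element TGACGTCA. The letters AGATAA, which Gata3 and its relatives recognise, were searched as well. The last motif searched was GGAAAA, recognised by NFAT factors. Sequences run 5′ to 3′ along the gene.
Ecm1, chr3:95739520-95739819, minus strand: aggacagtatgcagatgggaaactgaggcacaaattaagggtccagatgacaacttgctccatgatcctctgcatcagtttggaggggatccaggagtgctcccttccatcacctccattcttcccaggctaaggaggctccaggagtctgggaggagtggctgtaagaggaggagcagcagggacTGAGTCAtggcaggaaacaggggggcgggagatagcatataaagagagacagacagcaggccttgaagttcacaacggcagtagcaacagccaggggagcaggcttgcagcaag
Adam19, chr11:46055734-46056033, plus strand: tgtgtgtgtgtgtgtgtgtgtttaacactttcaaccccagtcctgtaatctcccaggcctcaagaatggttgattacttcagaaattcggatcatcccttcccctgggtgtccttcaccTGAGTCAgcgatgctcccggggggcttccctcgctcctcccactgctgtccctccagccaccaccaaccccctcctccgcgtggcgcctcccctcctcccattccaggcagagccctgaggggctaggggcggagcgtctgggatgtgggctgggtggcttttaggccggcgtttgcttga
Emilin2, chr17:71310962-71311261, minus strand: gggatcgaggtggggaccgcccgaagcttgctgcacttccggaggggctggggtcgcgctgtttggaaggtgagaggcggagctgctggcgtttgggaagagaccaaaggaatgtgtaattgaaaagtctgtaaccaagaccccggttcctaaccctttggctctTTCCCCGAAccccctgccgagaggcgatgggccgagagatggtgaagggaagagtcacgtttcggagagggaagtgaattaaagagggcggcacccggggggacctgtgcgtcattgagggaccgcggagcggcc
Emilin2, chr17:71311507-71311806, minus strand: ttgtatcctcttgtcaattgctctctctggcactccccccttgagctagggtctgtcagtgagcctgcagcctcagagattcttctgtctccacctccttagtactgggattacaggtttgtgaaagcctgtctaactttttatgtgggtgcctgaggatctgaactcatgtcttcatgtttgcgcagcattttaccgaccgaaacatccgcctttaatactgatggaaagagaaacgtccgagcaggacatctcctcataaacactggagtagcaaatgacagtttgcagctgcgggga

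Ecm1 held 1 AP-1 match, beginning 64 bases before the start, and this Adam19 window held 1 that begins 131 bases before it. The first Emilin2 window held 1 match to TTCNNNGAA, 85 bases before the start, and the second held none of the 6 motifs. Another Adam19 window matched TTCNNNNGAA at 1 place and the Lgals3 window at 2. Both of these windows also matched the NFAT motif once. No member window matched TGACGTCA, and none held the Gata3 letters. In all, 6 of the 11 matched none of the motifs. No match overlapped another. The share of all 32851 RefSeq windows with a match was 7.81% for TGANTCA, 8.30% for TTCNNNGAA, 6.95% for TTCNNNNGAA and 1.79% for TGACGTCA. It was 11.2% for the Gata3 letters and 23.4% for the NFAT motif. A match is a run of letters and no evidence of binding.

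Among the 9 members, 1 was past the all-gene threshold (Emilin2, edgeR adjusted p under 0.05). Over all 14316 genes tested, 45 were, or 0.314%, and 33 of them, or 0.231% of the genes tested, were lower with HU-308. Of the 45, 12 were higher, and with scaling by library size alone the split was 8 higher and 12 lower. The groups did not overlap for 3 members, of which Emilin2 and Adam19 were lower and Emilin1 higher with HU-308. Over all genes tested the groups did not overlap for 51.3%, with 25.4% lower and 25.9% higher. The median log2 fold change of HU-308 over DMSO was 0.34 for the members and 0.02 for all genes tested. Nothing is read from these counts, since this comparison was known when the members were chosen. In RNA of whole cultures, fewer cells that make a transcript and less of it per cell cannot be told apart.

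Emilin2 and Emilin1, the 2 elastin microfibril interfacers, differed between the groups in opposite directions, Emilin2 being lower and Emilin1 higher in both HU-308 libraries than in both DMSO libraries. Emilin2 (ENSMUSG00000024053, chr17:71252172-71311978, minus strand) had 7.06 and 5.52 FPKM with HU-308, against 30.8 and 26.4 FPKM with DMSO. Both HU-308 values lay far below both DMSO values, with 657 and 521 reads against 2956 and 2864. The fold was 0.221 of DMSO (log2 fold change −2.18 ± 0.18 SE), the 65th lowest of the genes tested. Leaving out HU-308 replicate 1 gave −2.36 and leaving out HU-308 replicate 2 gave −2.02. Without DMSO replicate 1 it was −2.08, and without DMSO replicate 2 it was −2.28. Limma on log2 FPKM did not call Emilin2, nor any other gene (unadjusted, 2625 genes were under 0.05 at a pseudocount of 1). Emilin1 (ENSMUSG00000029163, chr5:30913402-30921277, plus strand), whose protein restrains the maturation of TGF-beta in mice, had 2.39 and 2.36 FPKM with HU-308, against 1.78 and 1.74 FPKM with DMSO. Replicates of Emilin1 differed less than those of any other member. The HU-308 values lay above the DMSO values, with a log2 fold change of 0.44 ± 0.20. Emilin1 was not past the edgeR threshold, and no alternative fit on all 4 libraries called it. Its groups did not overlap, as was so for 51.3% of all genes tested. The ratio of Emilin2 to Emilin1 within a library, which no scaling between libraries can alter, was 2.96 and 2.34 with HU-308 and 17.3 and 15.2 with DMSO. Emilin2 was thus the more abundant of the pair in every library, by much less with HU-308.

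**Figure D2:**
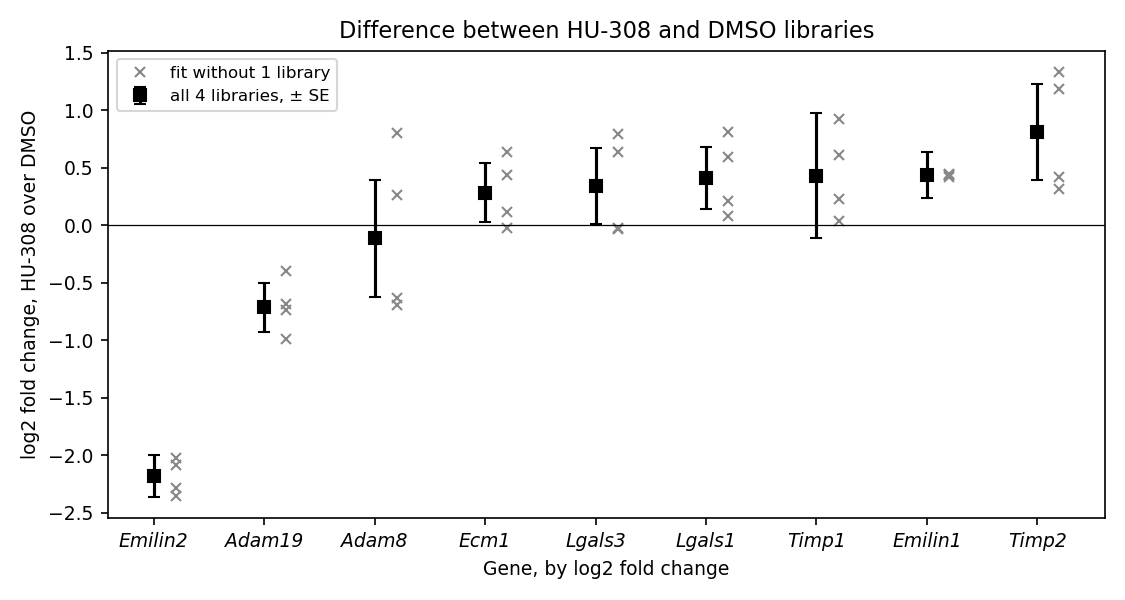
Log2 fold change of HU-308 over DMSO for each gene from all 4 libraries (squares, bars ± SE) and with each library left out in turn (crosses). Emilin2 lies at −2.18 with crosses close by, Emilin1 at 0.44 with crosses that coincide, and the crosses of Adam8, Ecm1 and Lgals3 fall on both sides of 0.

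Adam19 was lower with HU-308, and Adam8 was not separated by group. Adam19 (ENSMUSG00000011256, chr11:46055992-46147343, plus strand), also called meltrin beta, had 49.7 and 47.2 FPKM with HU-308, against 64.1 and 95.5 FPKM with DMSO. The HU-308 values were close together and below both DMSO values, which were far apart. The log2 fold change of Adam19 was −0.71 ± 0.21, and it went to −0.40 when DMSO replicate 2 was left out and to −0.99 when DMSO replicate 1 was. Adam19 was not past the edgeR threshold. In the authors' deposited table, Adam19 and Emilin2 were the 2 members with an adjusted p under 0.05, in a table where 3.13% of 23290 genes were. In the fits made here on all 4 libraries, DESeq2 did not call Adam19. Only the fit with the replicate number as a block did. Adam8 (ENSMUSG00000025473, chr7:139978932-139992562, minus strand), which can cut the low-affinity IgE receptor, had 43.7 and 80.1 FPKM with HU-308, against 35.8 and 99.2 FPKM with DMSO. The highest and the lowest value were both DMSO libraries, so the HU-308 range lay inside the DMSO range. The log2 fold change of Adam8, −0.11 ± 0.51, became 0.80 when DMSO replicate 2 was left out and −0.69 when DMSO replicate 1 was. It became 0.27 when HU-308 replicate 1 was dropped, and 0.00455 with scaling by library size alone. The ratio of Adam8 to Adam19 within a library was 0.880 and 1.70 with HU-308 and 0.558 and 1.04 with DMSO. These ratios overlapped, and in both groups replicate 2 had the higher ratio.

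Ecm1 and Lgals1 were high in every library and Lgals3 moderate, and the groups overlapped for all 3. Ecm1 (ENSMUSG00000028108, chr3:95734147-95739569, minus strand) had 1540.2 and 1896 FPKM with HU-308, against 1109 and 1729 FPKM with DMSO. By raw counts it was the 5th and 4th most abundant gene in the HU-308 libraries and the 13th and 7th in the DMSO libraries. Only DMSO replicate 1 stood apart, on the low side, and the log2 fold change of 0.28 ± 0.26 was −0.02 without it. Lgals1 (ENSMUSG00000068220, chr15:78926725-78930465, plus strand), which encodes galectin-1, had 1014 and 1299 FPKM with HU-308, against 664.2 and 1083 FPKM with DMSO. DMSO replicate 1 was again the lowest, DMSO replicate 2 lay between the HU-308 libraries, and the log2 fold change was 0.41 ± 0.27, and 0.08 without DMSO replicate 1. Lgals3 (ENSMUSG00000050335, chr14:47367751-47386160, plus strand), which encodes galectin-3, had 24.0 and 37.5 FPKM with HU-308, against 17.9 and 31.0 FPKM with DMSO. These values interleaved, with a log2 fold change of 0.34 ± 0.33 that turned to −0.02 when DMSO replicate 1 was left out and to −0.03 when HU-308 replicate 2 was. Galectin-1 transcript exceeded galectin-3 transcript 42.2-fold and 34.6-fold with HU-308 and 37.1-fold and 34.9-fold with DMSO. The ratio of Ecm1 to Lgals1 was 1.52 and 1.46 with HU-308 and 1.67 and 1.60 with DMSO. Both HU-308 ratios of Ecm1 to Lgals1 lay below both DMSO ratios, but the nearest, 1.52 and 1.60, were close, and the difference was not tested.

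**Figure D3:**
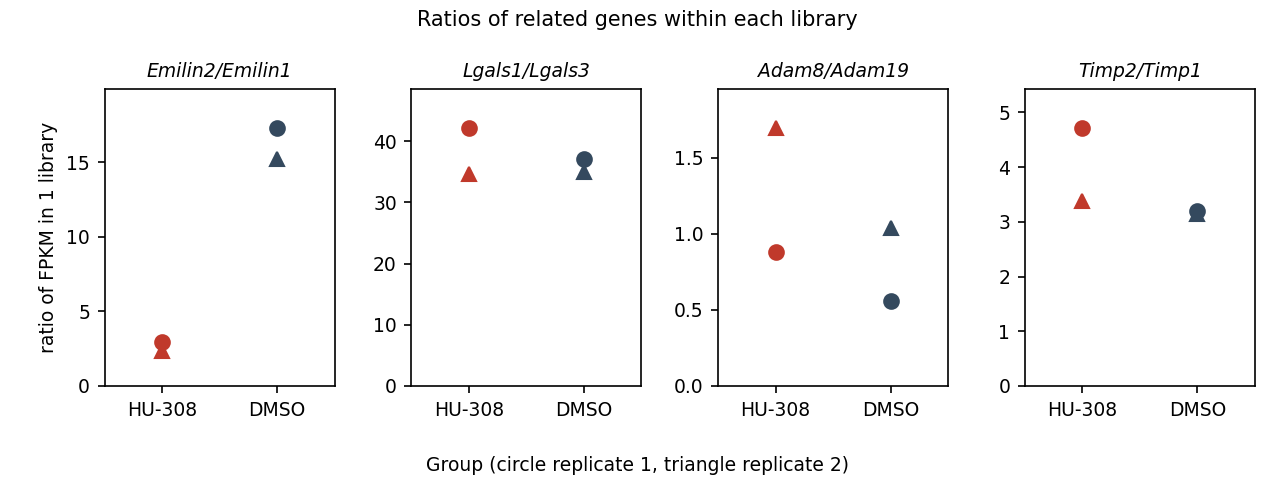
Ratio of FPKM between 2 related genes within each library (axes from 0), HU-308 at left and DMSO at right in each panel, circles for replicate 1 and triangles for replicate 2. Emilin2 over Emilin1 is 2.34 to 2.96 with HU-308 and 15.2 to 17.3 with DMSO, while the ratios of the galectins and of the ADAM genes overlap between groups.

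The TIMP genes and Emilin1 were the least abundant members. Timp2 (ENSMUSG00000017466, chr11:118301069-118355740, minus strand) had 5.35 and 2.89 FPKM with HU-308, against 3.09 and 1.62 FPKM with DMSO. HU-308 replicate 1 was highest and DMSO replicate 2 lowest, and the other 2 libraries were nearly equal. Its log2 fold change of 0.81 ± 0.42 was the highest of the members, and ranged from 0.31 if HU-308 replicate 1 was left out to 1.33 if DMSO replicate 1 was. Timp1 (ENSMUSG00000001131, chrX:20870166-20874735, plus strand) had only 17 and 13 reads with HU-308 and 15 and 9 with DMSO, or 1.13 and 0.853 FPKM against 0.970 and 0.515 FPKM. These few reads do not separate the groups, and a difference was not detectable at this depth (log2 fold change 0.43 ± 0.55). Timp2 exceeded Timp1 by 4.72-fold and 3.38-fold with HU-308 and by 3.19-fold and 3.14-fold with DMSO.

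The replicates of a group differed for most members, and in the same sense in both groups for 7 of 9. Ecm1, Lgals1, Lgals3 and Adam8 had their higher value in replicate 2, with HU-308 as with DMSO, and Emilin2, Timp1 and Timp2 in replicate 1. Adam8 differed most, 1.86-fold with HU-308 and 2.77-fold with DMSO, in CPM. Its log2 difference between the DMSO replicates was larger than that of 99.2% of genes tested, and between the HU-308 replicates larger than that of 94.6%. Timp2 was higher in replicate 1 by 1.83-fold with HU-308 and 1.91-fold with DMSO. For Adam8, Ecm1, Lgals3 and Timp2, the replicates of both groups thus lay as far apart as the groups, or farther. For Lgals1 and Timp1 this held for the DMSO replicates only, which differed 1.63-fold and 1.88-fold. Over all genes tested, 70.9% had their replicates in the same order in both groups. The 8 macrophage markers moved with the same replicates, at sums of 30.5 and 63.1 CPM with HU-308 and 41.7 and 77.8 CPM with DMSO, of which most was Adgre1 (mean 49.3 CPM). Of that list 3 genes were read in every library, and Lyz2, C1qa and C1qb had no read. Mast cell and basophil markers had sums of 13.8 and 22.0 CPM with HU-308 and 9.40 and 18.7 CPM with DMSO, mostly Cpa3, with Mcpt8, Ms4a2 and Fcer1a at no read and 1 of 5 read in every library. The part of these markers in the levels of the members was not tested.

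**Figure D4:**
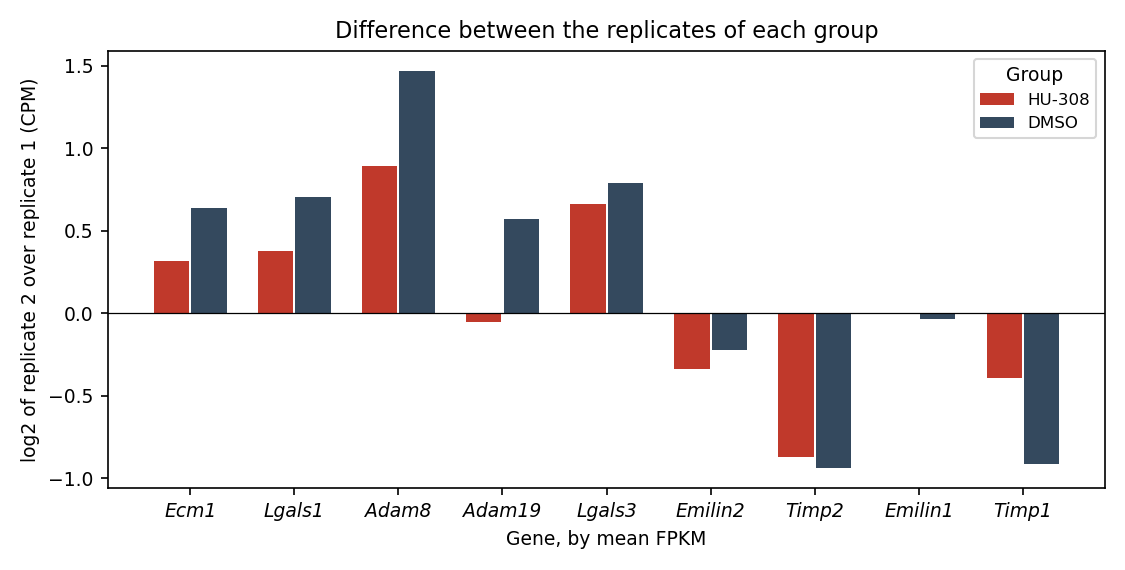
Log2 of replicate 2 over replicate 1 in CPM for each gene, HU-308 bars at left and DMSO bars at right. Adam8, Ecm1, Lgals1 and Lgals3 are above 0 in both groups, Emilin2, Timp1 and Timp2 below 0 in both, and Emilin1 is near 0.

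Sums of the other marker lists were small beside the abundant members. B cell markers, all 6 read in every library and led by Ighm, had 84.0 and 68.1 CPM with HU-308 against 40.4 and 35.8 CPM with DMSO. Fibroblast markers had 3.68 and 3.08 CPM with HU-308 against 3.12 and 3.27 CPM with DMSO, with 1 of 6 read in every library, Col1a1. Dendritic cell markers had 8.67 and 11.0 CPM with HU-308 against 5.88 and 15.6 CPM with DMSO (4 of 6 read in every library, Clec9a in none). Markers of CD8 T and NK cells had 13.9 and 12.1 CPM with HU-308 against 12.8 and 13.7 CPM with DMSO (2 of 5, Klrb1c in none). Neutrophil and endothelial markers were below 1 CPM in sum in every library. The B cell sum was higher in both HU-308 libraries, as Emilin1 was, and its part in the values of Emilin1 was not tested.

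Related genes outside the 9 were taken from 9 lists of 171 genes written from general knowledge, of which 107 were tested. None passed the all-gene threshold in edgeR, while 23 were under 0.05 before adjustment (8 up and 15 down), as were 18.8% of all genes tested. DESeq2 called 10 of the 107, 3 higher and 7 lower, and 5.61% of all genes tested. The median log2 fold change over the 107 genes was 0.01. After Lama5, described below, the lowest edgeR adjusted p-values were those of Tgm1, Adamts10 and Fut8. Tgm1, at a mean of 2.27 FPKM, had a log2 fold change of −2.74 ± 0.46 (edgeR adjusted p = 0.0804). Adamts10 had 0.74 ± 0.13 (0.0893) and Fut8 −0.95 ± 0.17 (0.0920). These genes too were chosen after their values were seen.

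Matrix glycoproteins, collagens and proteoglycans (25 of 45 tested) had a median log2 fold change of −0.01. Srgn, the granule proteoglycan serglycin, had 323.4 and 349.1 FPKM with HU-308 and 273.6 and 341.1 FPKM with DMSO (log2 fold change 0.14 ± 0.16). Igfbp4, an IGF-binding protein, had a log2 fold change of 0.08 ± 0.43. Neither was as abundant as Ecm1 or Lgals1. Chosen after its values were seen, the laminin chain gene Lama5 had 25.4 and 29.7 FPKM with HU-308, against 74.8 and 121.1 FPKM with DMSO (log2 fold change −1.82 ± 0.26, edgeR adjusted p = 0.0675, the lowest of the 107). The collagen IV chain genes Col4a1 and Col4a2, chosen likewise, had log2 fold changes of −1.09 ± 0.27 and −1.35 ± 0.25 at levels near 1 FPKM (edgeR adjusted p = 0.138 and 0.0942). On the log2(FPKM + 1) scale they were −0.43 and −0.56.

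The other galectins (6 of 9 tested) had a median of 0.01. Lgals3bp, which encodes a galectin-3 binding glycoprotein, had 42.6 and 46.7 FPKM with HU-308 and 45.0 and 51.0 FPKM with DMSO (log2 fold change −0.10 ± 0.14, 0.02 when scaled by library size alone). Lgals9, encoding galectin-9, had 32.7 and 35.6 FPKM with HU-308 and 24.6 and 24.5 FPKM with DMSO (0.48 ± 0.13). It was close to Lgals3 in level and its replicates lay nearer each other. Counter-receptors and glycan enzymes of galectins (19 of 19 tested) had a median of −0.13. At an unadjusted edgeR p under 0.05, Fut8, Mgat2, Mgat5 and St6gal1 of this list were lower and St3gal3 higher. That is 5 of 19, beside 18.8% of all genes tested. Other lists held such genes too, not all named here, among them 2 of the 6 other galectins and 4 of the 16 matrix-modifying enzymes. Spn, encoding the galectin-1 ligand CD43, had a log2 fold change of 0.22 ± 0.15, and St3gal1, a sialyltransferase, of −0.21 ± 0.31.

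The other ADAM and ADAMTS genes (9 of 22 tested) had a median of 0.06. Adam10, the main sheddase of Notch receptors, had 53.1 and 51.9 FPKM with HU-308 and 45.5 and 44.6 FPKM with DMSO (0.23 ± 0.12). Its level was like that of Adam19 with HU-308 (49.7 and 47.2 FPKM) and below it with DMSO (64.1 and 95.5 FPKM). Tspan14, a tetraspanin partner of ADAM10, had a log2 fold change of 0.25 ± 0.24. Metalloproteinases and their other inhibitors (7 of 22 tested) had a median of 0.14, with Bsg, the inducer basigin, at −0.15 ± 0.20. Mmp9, a gelatinase inhibited by TIMP1, had 0.970 and 5.39 FPKM with HU-308 and 1.12 and 6.35 FPKM with DMSO, higher in replicate 2 of both groups (−0.22 ± 0.98). That value ranged from −1.95 if HU-308 replicate 2 was left out to 1.52 if DMSO replicate 2 was. The plasminogen and heparanase list (6 of 11 tested) had a median of 0.15, with Serpinf1 at −0.08 ± 0.14 and Serpinb9 at −0.61 ± 0.52, which became −1.44 on leaving out HU-308 replicate 2 and 0.02 on leaving out DMSO replicate 2.

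Matrix-modifying enzymes (16 of 22 tested) had a median of −0.10. P4hb, the beta subunit of prolyl 4-hydroxylase, had a log2 fold change of −0.26 ± 0.15. The cross-linking enzyme gene Tgm2 had 16.3 and 8.02 FPKM with HU-308 and 59.0 and 22.4 FPKM with DMSO (−1.74 ± 0.53). Its groups did not overlap, its replicates differed more than 2-fold in each, and the value moved to −0.89 when DMSO replicate 1 was left out and to −2.32 when HU-308 replicate 1 was. Matrix receptors other than integrins (11 of 13 tested) had a median of 0.05, with Cd47 at −0.08 ± 0.14 and Hmmr at 0.16 ± 0.21.

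ECM1 in mouse Th2 cells is known to bind the beta chain of the IL-2 receptor and to allow renewed expression of the egress receptor S1P1. All 8 genes of that list were tested, with a median of 0.22 and no call. Il2ra had 583.1 and 282.6 FPKM with HU-308, against 1170.2 and 875.2 FPKM with DMSO (−1.24 ± 0.36), and Il2rb had 263.5 and 250.2 FPKM, against 379.0 and 484.5 FPKM with DMSO (−0.74 ± 0.17). Il2ra and Il2rb had both HU-308 libraries below both DMSO libraries, as did 25.4% of all genes tested. The groups overlapped for Ecm1 itself. The value of Il2ra was −1.84 when HU-308 replicate 1 was left out and −0.81 when HU-308 replicate 2 was. The gene of the third chain, Il2rg, had 82.1 and 106.6 FPKM with HU-308, against 70.5 and 78.9 FPKM with DMSO (0.34 ± 0.18), and was the higher in both HU-308 libraries. S1pr1, which encodes S1P1, had 47.9 and 26.5 FPKM with HU-308, against 36.6 and 17.9 FPKM with DMSO (0.46 ± 0.41). Its groups overlapped, and its log2 fold change ranged from −0.02 if HU-308 replicate 1 was left out to 1.04 if DMSO replicate 1 was. Groups also overlapped for Cd69 (−0.76 ± 0.44, and −0.06 if DMSO replicate 2 was left out). Klf2 and S1pr4, chosen after their values were seen, had log2 fold changes of 1.80 ± 0.34 and 1.07 ± 0.20 (edgeR adjusted p = 0.0933 and 0.0942). The value of Klf2 was 1.22 on leaving out HU-308 replicate 1.

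**Figure D5:**
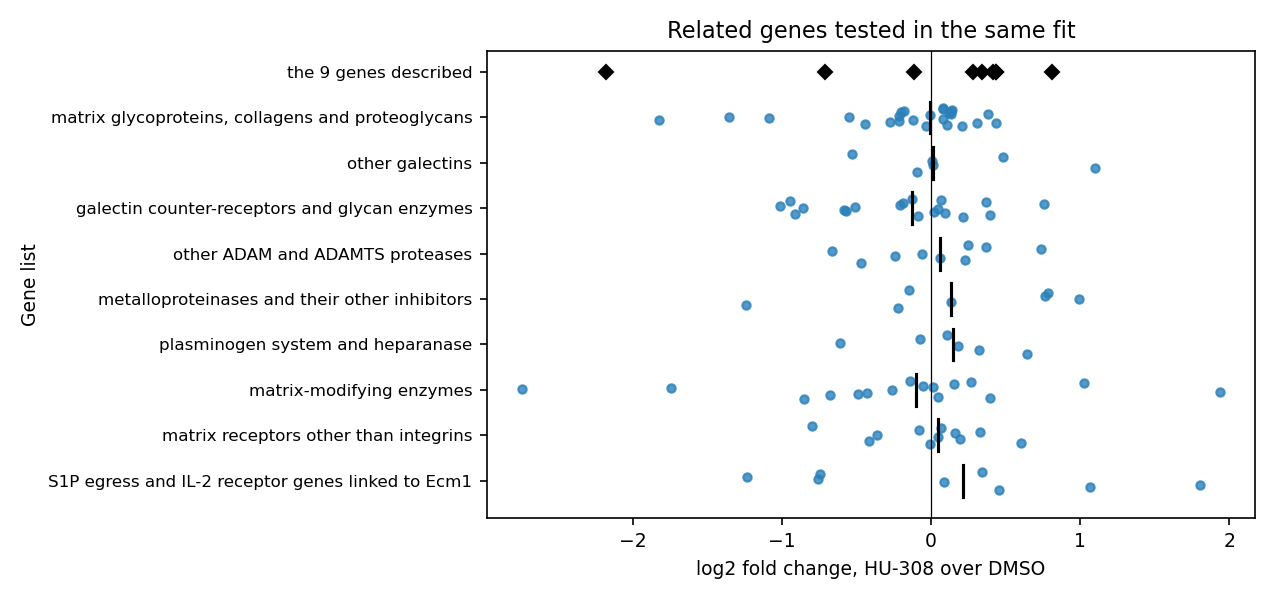
Log2 fold change of HU-308 over DMSO (x axis) for the 9 genes described (diamonds) and for the tested genes of 9 related lists (points, with the list median as a bar). List medians lie between −0.13 and 0.22, and Emilin2 at −2.18 is lower than every list gene but 1.

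The genes nearest in profile were sought for the member with the largest difference and for the one with the highest level, by the root mean square distance of centred log2 CPM over the 4 libraries. Those nearest to Emilin2 were Naf1 (distance 0.131), Ism1 (0.150) and Lgr4 (0.157). Ism1 had only 0.0594 and 0 CPM with HU-308, against 2.08 and 2.25 CPM with DMSO, so its distance depends on the pseudocount of 0.5. Naf1 had 12.5 and 8.41 CPM with HU-308, against 55.1 and 38.3 CPM with DMSO. Those nearest to Ecm1 were Pkp3 (0.0112), Vamp2 (0.0199) and Asic1 (0.0242). Pkp3 had 46.0 and 57.0 CPM with HU-308, against 32.6 and 50.7 CPM with DMSO, so it shared the low DMSO replicate 1. With 4 libraries many genes have such profiles, and closeness says nothing of shared function.

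In the GENCODE M21 annotation of GRCm38 all 9 genes had the coordinates of the deposited table. Exons of Emilin1, Emilin2, Lgals1, Lgals3, Timp1 and Timp2 shared no base with another gene. Ecm1 shared 2.50% of its exon bases with the microRNA gene Mir7014, which had no read. Adam8 shared 0.992% with the opposite-strand gene Gm16201, which had 80 and 112 reads with HU-308 and 78 and 119 with DMSO. Adam19 shared 8.25% with Gm16033 and 6.75% with Gm16034 on the opposite strand, which together had 1 read over the 4 libraries. Whether strand was used in counting is not given in the sources used here, so the reads of Adam8 and Adam19 in these stretches are less certain.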

How the data were processed

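RNA was sequenced in 4 libraries of Th2 cells, 2 with HU-308 and 2 with DMSO. Per the labels, RNA was extracted with TRIzol and libraries made with a SMARTER mRNA kit. The submitters' processing notes name the tools Bowtie2 (2.3.4.3), RSEM (1.3.1) and also DESeq2 (1.4.5), and GRCm38 (mm10) as build, but give no roles. Per the file headers the read counts are unscaled whole numbers per gene and library. FPKM is the authors' value per kilobase of the deposited gene length and per a scaled depth. Signal columns hold scaled counts averaged by the authors per group, the log2 fold change is the authors' HU-308 over DMSO, and the p-value columns are as deposited. Of the p-values, only whether an adjusted value was under 0.05 was used.

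The test was edgeR 4.0.16 under R 4.3.3. FilterByExpr removed low genes (count minimum 10, total minimum 15) and TMM scaled the libraries. The quasi-likelihood F test compared the groups as unpaired, with 2 residual degrees of freedom, Benjamini-Hochberg adjustment over 14316 genes and a threshold of 0.05. The SE is the log2 fold change over the square root of F. CPM is TMM-scaled. Replicates were no copies of each other: over tested genes, chi-square divided by its degrees of freedom was 28.5 between the HU-308 and 42.4 between the DMSO libraries.

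The members and lists were chosen with earlier results of these data known. Named genes are the members, called list genes, the 2 most abundant tested genes of each list and the 3 nearest profiles (pseudocount 0.5). No list gene was called. Other list genes named were chosen after their values were seen, or belong to the Ecm1 list, of which 1 gene is not reported here. Promoter motifs were also chosen with results known. Alternatives were RLE and library-size scaling, no filter or 1 CPM in 2 libraries, DESeq2 1.42.0, limma 3.58.1 with voom or on log2 FPKM (pseudocounts 1 and 0.1), a replicate block and each library left out. The edgeR steps were tested on simulated data. Plots used Python 3.11.15 and matplotlib 3.10.9.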

Additional observations from a re-analysis of the deposited data

How the results depend on the processing

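The log2 fold change of Emilin2 lay between −2.36 and −2.02 over all alternatives. With all 4 libraries, its call was lost only with limma on log2 FPKM. Its call adds no support, since its result was known when the members were chosen. Over the 9 members, 109 of 116 alternative values moved by less than the spread between replicates. This is no measure of stability, since the shift on leaving a library out itself grows with that spread. Lgals3 thus counted as unmoved at −0.03 and at 0.79, against 0.34 in the main fit. Among the 116 values, 6 changed sign, for Adam8, Ecm1 and Lgals3. Of 338 alternative values of the list genes followed through these fits, 16 changed sign. They were for Srgn, Igfbp4, Lgals3bp, St3gal1, Tspan14, Bsg, Mmp9, Serpinf1, Serpinb9, Cd47, Hmmr and S1pr1. Tgm1, Adamts10 and the glycan enzymes other than St3gal1 were not followed. The 45 genes called became 20 (8 higher, 12 lower) with library size only (all genes then shifted by a median of 0.118), 561 without a low-count filter, 28 with at least 1 CPM in 2 libraries, 803 with DESeq2, and 0 with limma on log2 FPKM at either pseudocount (2625 and 2629 at an unadjusted p under 0.05). They were 45 with RLE and 51 with limma-voom. With a library left out they ranged from 37 to 337, from fits with 1 residual degree of freedom in which the lone library is assumed to vary like the other group. Of the 107 list genes, 0 were called in edgeR, 10 without a low-count filter, 10 with DESeq2 and 1 to 5 with a library left out.

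No label pairs libraries by number. Differences between replicates 2 and 1 correlated between the groups across genes tested (r = 0.531, genes not being independent). With the replicate number as a block, 4839 of the 14316 genes tested were called, and 43 of the 107 list genes. So were 6 of the 9 members (Adam19, Ecm1, Emilin2, Lgals1, Lgals3 and Timp2). With so many of all genes called, nothing is read from these counts about the members or lists. The cause of these changes was not tested.

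Depth limits Timp1, with 9 to 17 reads, and it could not be fitted under the 1 CPM filter.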
